A study of Homo sapiens with 12 samples.

Results

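The regions described here were the H3K4me3 regions of RT112 cells that lay away from protein-coding promoters. A region belonged to the set when it lay on chromosomes 1 to 22 or X, was under 5000 bp wide and did not reach within 1 kb of the transcription start site (TSS) of any protein-coding transcript in GENCODE 44. Of 9765 H3K4me3 regions on these chromosomes, 554 met the rule (5.67%). A further 47 regions off promoters were 5000 bp or wider, and 8483 regions under 5000 bp lay at protein-coding promoters and served for comparison. The members were thus selected on the position and width of the called H3K4me3 regions, and those properties are described without a test. The ARID1A calls played no part in the selection.

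RT112 is an established human bladder transitional cell carcinoma line, and the study describes it as without ARID1A mutation. CUT&RUN, in which a nuclease tethered by an antibody releases the DNA fragments around its target, was applied to RT112 cells in 4 groups of 3 replicates (12 samples): ARID1A with an Abcam antibody, ARID1A with a CST antibody, H3K4me3, and IgG as the negative control. All groups were the same cells, grown in DMEM with 10% FBS. They differed in the antibody and, per the supplement of the study, in its dilution, which was not the same for Abcam and CST. The lists analysed here hold 1 merged set of called regions per antibody (37501 for Abcam, 32932 for CST), so they give neither signal nor replicate values, and the depth of the libraries is unknown.

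H3K4me3 is the trimethylated form of lysine at the amino-terminal tail of histone H3, and it is deposited at nucleosomes that flank active start sites of RNA polymerase II. Long noncoding RNAs (lncRNAs), primary transcripts of microRNAs and expressed pseudogenes have such start sites as well as protein-coding genes. ARID1A binds DNA as part of the canonical BAF (SWI/SNF) remodelling complex, which slides and evicts nucleosomes at promoters and enhancers, and its gene is often mutated in bladder cancer.

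Each region was put in 1 class by the other TSSs within 1 kb of it, in the order lncRNA, pseudogene, small RNA, other gene type, noncoding transcript of a protein-coding gene, and no TSS. A TSS here is the first base of an annotated transcript. A noncoding transcript of a protein-coding gene here is any whose GENCODE transcript type is not protein-coding. Such a transcript need not lack a coding sequence. The DNA at the middle of a region shows how unlike each other these places were. The sequences below are the middle 300 bp of the widest region with ARID1A called by both antibodies in 5 of these classes, read from the plus strand of hg38. Capitals mark matches to the transcription factor words described further on, on either strand.
MIR34AHG (lncRNA, chr1:9182002-9182301): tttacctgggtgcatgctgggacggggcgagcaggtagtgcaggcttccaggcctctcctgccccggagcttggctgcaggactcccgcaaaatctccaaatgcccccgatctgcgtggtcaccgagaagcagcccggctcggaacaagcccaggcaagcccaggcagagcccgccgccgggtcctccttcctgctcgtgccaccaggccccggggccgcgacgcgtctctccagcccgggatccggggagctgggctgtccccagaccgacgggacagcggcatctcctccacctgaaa
AFG3L1P (pseudogene, chr16:89972816-89973115): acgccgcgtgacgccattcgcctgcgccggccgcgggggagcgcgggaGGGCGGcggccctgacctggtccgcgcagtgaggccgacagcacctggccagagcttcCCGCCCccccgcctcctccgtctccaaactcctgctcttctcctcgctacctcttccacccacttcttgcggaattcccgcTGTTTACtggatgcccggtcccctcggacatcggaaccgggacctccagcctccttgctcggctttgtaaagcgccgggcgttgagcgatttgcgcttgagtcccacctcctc
MIR935 (small RNA, chr19:53980550-53980849): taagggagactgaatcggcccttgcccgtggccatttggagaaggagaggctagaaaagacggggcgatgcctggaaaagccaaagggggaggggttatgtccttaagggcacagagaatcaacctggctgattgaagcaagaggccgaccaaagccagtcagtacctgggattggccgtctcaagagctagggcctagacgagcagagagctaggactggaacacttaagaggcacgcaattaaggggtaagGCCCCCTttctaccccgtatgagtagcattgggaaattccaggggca
GPR78 (noncoding transcript of a protein-coding gene, chr4:8559636-8559935): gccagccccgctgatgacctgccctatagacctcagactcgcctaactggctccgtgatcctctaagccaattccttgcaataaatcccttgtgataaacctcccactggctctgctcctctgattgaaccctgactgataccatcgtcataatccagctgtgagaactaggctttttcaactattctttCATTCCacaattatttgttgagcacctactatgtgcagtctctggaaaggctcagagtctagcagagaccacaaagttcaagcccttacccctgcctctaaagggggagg
no TSS, nearest coding gene EDEM1 (chr3:5697403-5697702): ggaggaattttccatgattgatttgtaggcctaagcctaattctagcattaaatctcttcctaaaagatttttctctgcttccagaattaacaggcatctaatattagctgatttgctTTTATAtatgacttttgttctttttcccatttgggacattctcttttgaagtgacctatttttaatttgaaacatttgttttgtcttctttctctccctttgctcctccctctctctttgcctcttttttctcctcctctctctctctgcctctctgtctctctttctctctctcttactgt
The MIR34AHG window held 23 CpG dinucleotides with a G+C content of 68.7%, and no word. The AFG3L1P window held 32 CpGs, a pair of GC boxes and a forkhead word. The window near EDEM1 was the opposite, with 0 CpGs, a G+C content of 36.7%, a long run of pyrimidines and a TATA box word.

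Start sites of lncRNAs accounted for most of the set. The lncRNA class held 323 of the 554 regions (58.3%, 95% exact interval 54.1 to 62.4%), and in 315 of the 323 the TSS lay inside the H3K4me3 region. In 84 of the lncRNA regions, start sites on both strands were present. The regions met 433 lncRNA genes, of which 212 have no symbol in GENCODE and are known only by an identifier.

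The no TSS class was the next in size, with 164 regions (29.6%). A further 37 regions (6.68%) met only the start of a noncoding transcript of a protein-coding gene, 16 a pseudogene but no lncRNA, 10 a small RNA and 4 genes of another type. The order of classes hides many coincidences, because 138 regions met more than 1 class. Counted without the order, 100 regions met a pseudogene TSS (18.1%), 51 a small RNA TSS (9.21%) and 53 a noncoding transcript of a protein-coding gene (9.57%).

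ARID1A was called by both antibodies at most of these regions. A shared ARID1A region, meaning one called with Abcam and touched by at least 1 bp of a CST call, overlapped 357 of the 554 (64.4%, interval 60.3 to 68.4%). Among all 9037 H3K4me3 regions under 5000 bp the share was 59.8%, and among all 9765 of any width it was 61.9%. An Abcam region overlapped 412 (74.4%), against 73.3% of all H3K4me3 regions under 5000 bp. A CST region overlapped 380 (68.6%), against 65.1%. Neither antibody gave a region at 119 (21.5%), against 21.4%. In 55 only the Abcam antibody and in 23 only the CST antibody gave a region. These intervals treat regions as independent and cover counting error only.

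The share was close to that at protein-coding promoters under the same limit of width. Of the 8483 promoter regions, 59.5% had shared ARID1A, so off-promoter regions exceeded them by 4.96 percentage points (95% Newcombe interval 0.753 to 8.97). For the Abcam antibody alone the difference was 1.12 points (-2.79 to 4.7), for the CST antibody alone 3.69 points (-0.422 to 7.55), and for regions without ARID1A 0.0373 points (-3.3 to 3.75), each with an interval that included 0. Shared ARID1A regions at these places were a small part of all shared ARID1A regions, 373 of 28609 (1.3%).

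**Figure D1:**
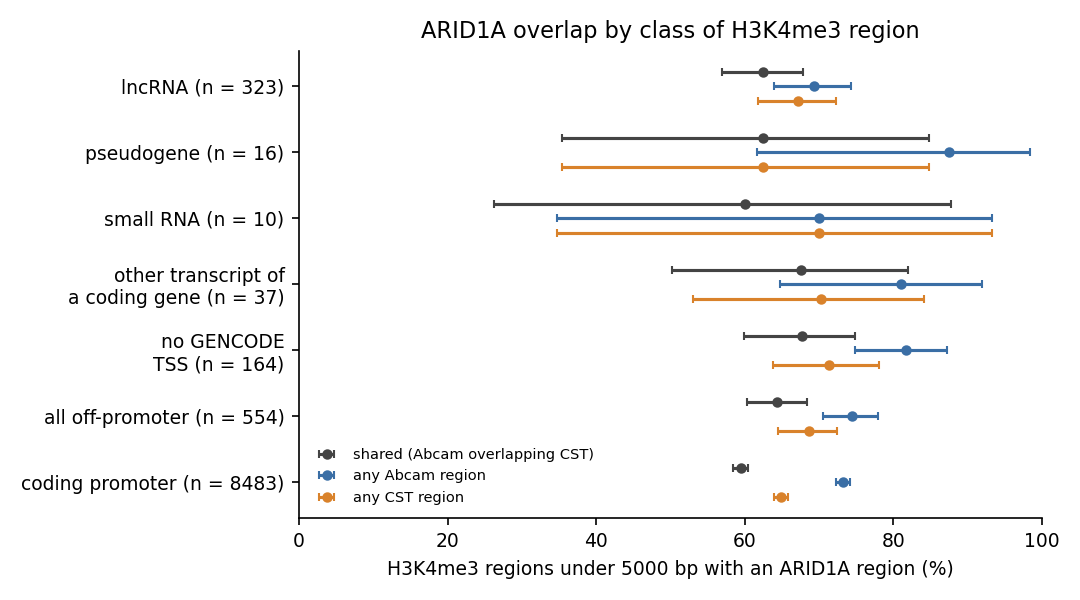
Share of H3K4me3 regions under 5000 bp (x axis, %) that overlapped an ARID1A region, for each class of off-promoter region, all 554 off-promoter regions and 8483 protein-coding promoter regions. Points are shares and bars 95% exact binomial intervals; the shared share ran from 60% to 67.7% over the classes shown, and the small classes have wide bars.

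Wider H3K4me3 regions had ARID1A more often, in both sets. In 4 width classes of about equal numbers of off-promoter regions, the shared share was 50.4% (70 of 139) at 440 to 2169 bp, 57.2% at 2172 to 2623 bp, 72.8% at 2625 to 3267 bp and 77.3% (109 of 141) at 3268 to 4991 bp. At promoters of the same widths it was 42%, 51.8%, 58.2% and 70.7%. Off-promoter regions were the narrower set, with a median width of 2624 bp against 2979 bp. With the promoter regions weighted to the widths of the off-promoter regions their share was 55.7%, which is 8.72 points below the off-promoter share. The difference was positive in each class, and its interval lay above 0 in the third (14.6 points, 6.39 to 21.7).

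**Figure D2:**
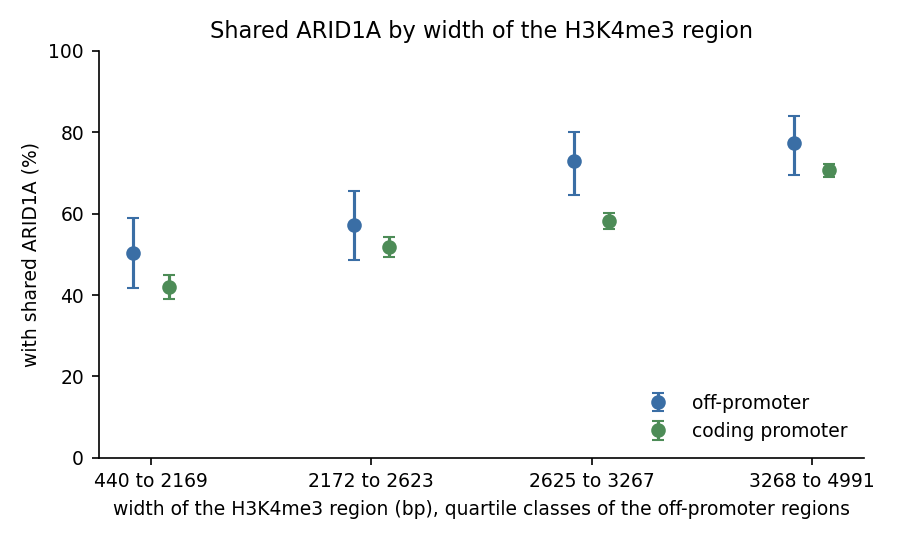
Share of H3K4me3 regions with shared ARID1A (y axis, %) in 4 classes of region width (x axis, bp), for off-promoter and protein-coding promoter regions. Points are shares and bars 95% exact binomial intervals; both sets rise from the narrowest class (50.4% and 42%) to the widest (77.3% and 70.7%).

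At the lncRNA class, ARID1A was shared at 202 of 323 regions (62.5%, interval 57 to 67.8%). An Abcam region overlapped 69.3% and a CST region 67.2%, and 84 (26%) had no ARID1A region. The widest lncRNA region with shared ARID1A, chr1:9179666-9184638, held the starts of LNCTAM34A and MIR34AHG, the latter the host transcript of miR-34a, which is induced by p53. An Abcam region at chr1:9179706-9182915 and a CST region at chr1:9179655-9182187 lay over its left side. Shared ARID1A covered 64.5% of the H3K4me3 region, where the cover is counted over Abcam regions that a CST region overlapped. At NORAD, a cytoplasmic lncRNA that binds Pumilio proteins, ARID1A was narrow (Abcam chr20:36050491-36051254) and the shared calls covered 16.4% of an H3K4me3 region at chr20:36047511-36052179. LINC01623 on chromosome 6 was covered to 82.5% and lay at a tRNA gene, and the unnamed lncRNAs ENSG00000271788 and ENSG00000289850 were covered to 67.6% and 20.3%.

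Wide lncRNA regions without either antibody were also present. ENSG00000289069, an unnamed lncRNA inside NECTIN3-AS1, had its nearest ARID1A region 62225 bp away. SNHG12, host of several small nucleolar RNAs, had H3K4me3 over 4249 bp (chr1:28578289-28582537) and its nearest ARID1A region 24254 bp away.

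Lists of known noncoding genes show which familiar transcripts fell in the set. Of 26 small nucleolar RNA host lncRNAs, whose introns carry the RNAs that guide modification of ribosomal RNA, 12 had a TSS at an off-promoter region, and 7 of the 12 regions had shared ARID1A. SNHG6, SNHG15, SNHG16, SNHG21, SNHG25, SNHG30 and DANCR had both antibodies, SNHG8 only Abcam, SNHG11 only CST, and SNHG12, SNHG17 and EPB41L4A-AS1 neither. SNHG11 and SNHG17 are neighbours on chromosome 20, at chr20:38446319-38448354 and chr20:38433283-38435671. The 7 of 12 can be read against the 59.8% of all H3K4me3 regions under 5000 bp.

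Of 23 microRNA host lncRNAs, 7 lay at off-promoter regions and 5 of those had shared ARID1A (59.8% of all H3K4me3 regions under 5000 bp did), while 9 had no H3K4me3 region. MIR17HG, the host of the oncogenic miR-17-92 cluster, had H3K4me3 at chr13:91346613-91351083 with ARID1A over its left part (Abcam chr13:91346779-91348659, CST chr13:91347776-91349061). MIR34AHG, MIRLET7A1HG, MIR4435-2HG and DLEU2, host of miR-15a and miR-16, were the others with both antibodies. MIR210HG, host of a microRNA induced in hypoxia, had neither, with the nearest ARID1A region 5354 bp away. MIR193BHG also had neither, but an ARID1A region began 187 bp outside its H3K4me3 region.

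Few lncRNAs of cancer fame met the rule. Of 30 lncRNAs studied in bladder and other epithelial cancers, CYTOR (chr2:87455378-87457312, shared ARID1A) and the imprinted KCNQ1OT1 (chr11:2697934-2701233, no ARID1A) were members. In that list 4 lay in off-promoter regions too wide for the rule, 8 in promoter regions, and 12 had no H3K4me3 region. None of 18 HOX cluster lncRNAs was a member: 10 lay at H3K4me3 regions that reached a protein-coding promoter and 8 had no H3K4me3 region.

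Start sites of pseudogenes carried ARID1A at 10 of 16 regions (62.5%, interval 35.4 to 84.8%), and an Abcam region was present at 14 of 16. The difference from the lncRNA class was -0.0387 points with an interval from -24.4 to 19.7, so these numbers cannot tell the classes apart. AFG3L1P, the remnant of a mitochondrial protease gene, shares chr16:89970556-89975375 with CENPBD1P, and ARID1A was narrow there, at 21.3% of the region. C19orf48P, FRG1BP, the histone pseudogene H3C9P and ZNF321P were the next widest with both antibodies. H3C9P lay in the histone gene cluster of chromosome 6 beside a tRNA gene, with 68.2% of its region covered. ZNRF2P1 and ZNF37BP were without ARID1A. Counted without the order of classes, 55 of 100 regions at a pseudogene TSS had shared ARID1A (55%, 44.7 to 65%). Reads that map to several places were removed by the authors, so near-identical copies of such genes, and of small RNA and tRNA genes, may lack regions.

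Regions at the annotated first base of a small RNA had shared ARID1A at 6 of 10 (60%, 26.2 to 87.8%) when alone, and at 30 of 51 (58.8%, 44.2 to 72.4%) when any small RNA counted. For microRNA hairpins and small nucleolar RNAs in host introns, that base need not be where transcription begins. By kind, 13 of 18 regions at a microRNA (46.5 to 90.3%), 7 of 13 at a small nucleolar RNA (25.1 to 80.8%), 6 of 7 at a small nuclear RNA (42.1 to 99.6%) and 5 of 11 at a miscellaneous RNA (16.7 to 76.6%) had shared ARID1A, and each of these intervals included the 59.8% of all H3K4me3 regions under 5000 bp. For MIR935, MIR200B, MIR132 and MIR212 of this class, mature sequences from RefSeq (GRCh38) are given below, with the seed, bases 2 to 8, in capitals.
hsa-miR-935: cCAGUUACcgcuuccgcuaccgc
hsa-miR-200b-3p: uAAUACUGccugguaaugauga
hsa-miR-132-3p: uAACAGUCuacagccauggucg
hsa-miR-212-3p: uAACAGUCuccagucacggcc
The last pair share the seed AACAGUC and share 1 H3K4me3 region, chr17:2049033-2051296, which had no ARID1A and whose nearest ARID1A region lay 6329 bp away. Its middle 300 bp was 83% G+C. The region of the 5S ribosomal RNA genes RNA5S12 and RNA5S13 (chr1:228634910-228636623) also had neither antibody. Near-identical copies can lose calls through the removal of reads with several map positions, so this cannot be read as absence of ARID1A. MIR200B belongs to the miR-200 family, which restrains the epithelial to mesenchymal transition by targeting ZEB1 and ZEB2. Its hairpin lies 710 bp to the right of the H3K4me3 region chr1:1161944-1166394. Abcam (chr1:1162371-1163679) and CST (chr1:1162225-1163716) regions lay near the left end of that region, and shared ARID1A covered 29.4% of it. The region of MIR935 lay in an intron of CACNG8, an auxiliary subunit of AMPA receptors, and was covered to 70.7%, and that of MIR4489 (chr11:65649845-65653888) to 79.9%.

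Genes of structural small RNAs fell in the set about as often as they had no H3K4me3 region. Of 33 such genes, 12 lay at 10 off-promoter regions, and 7 of the 10 regions had shared ARID1A, against 59.8% of all H3K4me3 regions under 5000 bp, while 7 lay in promoter regions and 12 had no H3K4me3 region. RNU4-1 and RNU4-2, copies of the U4 RNA of the spliceosome, share chr12:120290463-120294002, and shared ARID1A, counted over the Abcam region, covered 100% of it. The CST region there was 2936 bp wide, in an H3K4me3 region of 3540 bp. RNU6-7 and RNU6-8, copies of the U6 RNA, share a region covered to 90.8%, and RN7SL2, an RNA of the signal recognition particle, had 91.6%. VTRNA1-1 and VTRNA1-2, the vault RNAs, were covered to 81.1% and 78.7%. RNU4ATAC and RNY1 had 57% and 50%. RNU6-1 had only a CST region and RNY3 only an Abcam region. TERC, the RNA template of telomerase, had neither at chr3:169764071-169765593, with an ARID1A region 2919 bp away. At other gene types, 3 of 4 regions had shared ARID1A (59.8% of all H3K4me3 regions under 5000 bp did). Those were at the unnamed genes ENSG00000279602, ENSG00000279140 and ENSG00000280129. The region of ENSG00000280211 in RNF40 (chr16:30774418-30777496) had neither antibody.

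The class of noncoding transcripts of protein-coding genes, in the sense given above, held 37 regions away from any coding TSS. Of these, 25 had shared ARID1A (67.6%, 50.2 to 82%). The widest lay in GPR78 (chr4:8557491-8562080), an orphan receptor gene, with 87.6% covered. RGS12, a regulator of G protein signalling, and PHLDB1 had 98.9% and 100%, counted over Abcam regions. The CST regions at RGS12 and PHLDB1 were 2844 and 2634 bp wide, in H3K4me3 regions of 4489 and 4462 bp. BTBD16 and GAS6, a ligand of the TAM receptors, had 60.8% and 43.5%. Regions in SOX6, FBRSL1 and SRRM3 had neither antibody, and at SOX6 the nearest ARID1A region lay 129615 bp away.

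The no TSS class had shared ARID1A at 111 of 164 regions (67.7%, 59.9 to 74.8%), 5.14 points above the lncRNA class with an interval that included 0 (-3.92 to 13.7). An Abcam region was more frequent there, at 81.7% against 69.3% (12.4 points, 4.19 to 19.7), and regions without any ARID1A were fewer, at 14.6% against 26% (-11.4 points, -18.2 to -3.71). For the CST antibody the difference was 4.16 points (-4.67 to 12.4). Most of these regions, 100 of 164, lay outside any gene. The widest lay 506759 bp from EDEM1, its nearest coding TSS, at chr3:5695108-5699998, and shared ARID1A lay over its right end and covered 29.9%. Another, with SERINC2 as its nearest coding gene, lay at chr1:31466963-31471815 and was covered to 100% by an Abcam region of 6338 bp. The CST region there was only 1333 bp wide (chr1:31468487-31469819). A region in INPP5D, a phosphatase of phosphoinositide signalling, had 28.7%. The next widest with both antibodies had MPZL1 as its nearest coding gene (chr1:167713153-167717782). The 3 widest regions without either antibody had TEF, RPIA and BCOR as their nearest coding genes, the last in an intron of BCOR, a corepressor. The region named by RPIA lay 1631259 bp from it (chr2:90322932-90326485). Whether such remote calls are true H3K4me3 sites was not tested.

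Annotation outside GENCODE named part of the no TSS class. A RefSeq gene start lay within 1 kb of 20 of the 164 (12.2%), and a tRNA gene of RefSeq within 1 kb of 35 (21.3%), leaving 110 (67.1%) with neither. The tRNA genes and RefSeq starts were looked up after the other values had been seen. Without the regions at tRNA genes, 87 of 129 no TSS regions had shared ARID1A (67.4%).

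Genes for tRNAs lay at a larger share of these regions than of promoter regions. RNA polymerase III transcribes them from promoter elements inside the gene, and they cluster in the genome, with a large cluster beside the histone genes on chromosome 6. A tRNA gene lay within 1 kb of 53 of the 554 off-promoter regions (9.57%, 7.25 to 12.3%), against 34 of the 8483 promoter regions (0.401%), a difference of 9.17 points (6.98 to 11.9). Of 443 nuclear tRNA genes, 80 lay at off-promoter regions, 90 at other H3K4me3 regions and 273 at none. The gene body of 77 of the 80 lay inside the H3K4me3 region. By amino acid, proline tRNA genes came first with 12 of 20 at these regions, then leucine with 9 of 32, and alanine, lysine and threonine with 8 each.

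The following stretch (chr6:26555206-26555405, plus strand of hg38) shows such a gene inside its H3K4me3 region, with the proline tRNA gene TRP-AGG2-2 in capitals.
TRP-AGG2-2: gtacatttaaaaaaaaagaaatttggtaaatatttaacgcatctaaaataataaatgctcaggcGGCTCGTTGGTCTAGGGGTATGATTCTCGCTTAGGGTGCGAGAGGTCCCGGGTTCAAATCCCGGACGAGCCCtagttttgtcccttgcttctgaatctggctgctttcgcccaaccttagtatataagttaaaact
Its region (chr6:26552349-26557216), whose nearest coding gene is HMGN4, held 4 tRNA genes, for alanine, isoleucine, proline and lysine. An Abcam region at chr6:26553497-26557628 and a CST region at chr6:26553205-26558059 lay over most of it, and shared ARID1A covered 76.4%. A region on chromosome 11 also held 4, for valine, arginine and leucine (chr11:59549076-59552251), and was covered to 96.7% by its Abcam region. The CST region there was 1718 bp wide.

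Off-promoter regions at tRNA genes had shared ARID1A at 39 of 53 (73.6%, 59.7 to 84.7%), against 63.5% of the other 501, a difference of 10.1 points with an interval that included 0 (-3.68 to 21). With the Abcam antibody alone the values were 88.7% and 72.9% (15.8 points, 3.97 to 23.1). With the CST antibody alone they were 75.5% and 67.9%, a difference for which no interval was computed. Promoter regions with a tRNA gene had shared ARID1A at 27 of 34 (79.4%). By gene, the bodies of 55 of the 80 tRNA genes at these regions overlapped shared ARID1A (68.8%), as did those of 27 of the 273 tRNA genes without H3K4me3 (9.89%). The 90 genes at other H3K4me3 regions were not counted in this way. The contrast therefore cannot set off-promoter regions apart from H3K4me3 regions in general. With the regions at tRNA genes left out of both sets, the difference between off-promoter and promoter regions was 4.07 points and its interval included 0 (-0.359 to 8.3).

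The regions at tRNA genes were unevenly spread. Of the 53, 24 lay on chromosome 6 and 8 on chromosome 1. All 24 were among the 31 off-promoter regions between 26 and 29 Mb of chromosome 6. In that stretch the Abcam antibody gave a region at 26 of 31, the CST antibody at 17 and both together at 16 (51.6%, 33.1 to 69.8%). Among all H3K4me3 regions under 5000 bp the shares were 73.3%, 65.1% and 59.8% in that order, and the interval included the last. Over the whole set, 100 of 554 regions had another off-promoter region within 50 kb, so the regions are not fully independent. Of the 100, 57 had shared ARID1A, against 59.8% of all H3K4me3 regions under 5000 bp.

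The distance to a coding promoter ranged widely, with a median of 25142 bp. Shared ARID1A was present at 63.9% of the 36 regions between 1 and 3 kb from a coding TSS, 70.7% of the 116 between 3 and 10 kb, 69.7% of 152 between 10 and 30 kb, 57% of 151 between 30 and 100 kb, and 60.6% of the 99 beyond 100 kb. The nearest and the farthest class differed by 3.28 points, with an interval that included 0 (-15.4 to 20.1). Regions without any ARID1A were 31.3% of those beyond 100 kb and 15.5% of those between 3 and 10 kb (-15.8 points for the nearer class, -26.9 to -4.49). These classes have the highest and the lowest share, and the interval takes no account of such a choice. In the classes from 1 to 3, 10 to 30 and 30 to 100 kb the share was 16.7%, 19.7% and 22.5%. Among the widest regions beyond 100 kb with both antibodies were those of DLGAP1-AS2, inside DLGAP1 and covered to 98.9%, and of DLEU2, covered to 83.5%.

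**Figure D3:**
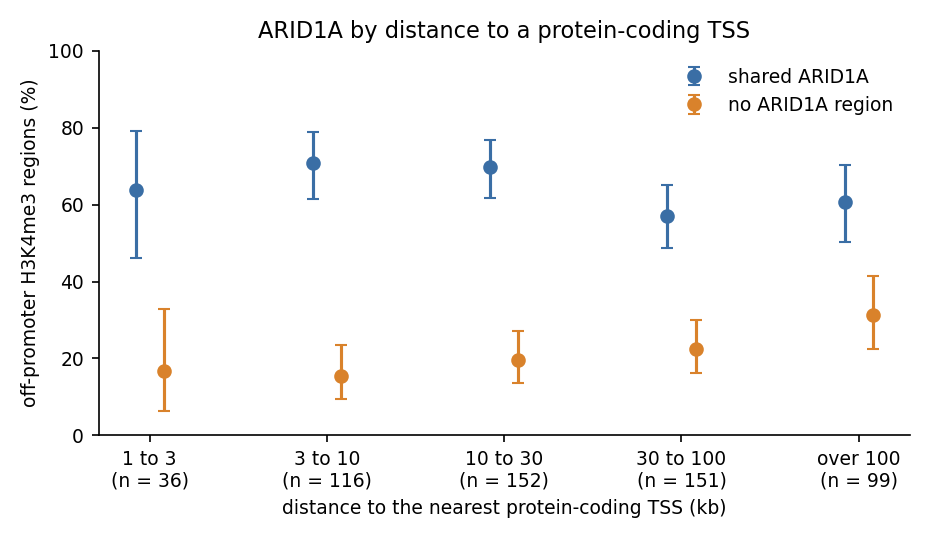
Share of off-promoter H3K4me3 regions (y axis, %) with shared ARID1A and with no ARID1A region, by distance to the nearest protein-coding TSS (x axis, kb). Points are shares and bars 95% exact binomial intervals; the share without ARID1A ran from 15.5% between 3 and 10 kb to 31.3% beyond 100 kb.

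By location of the midpoint, 46 regions fell in an exon and 81 in an intron of a protein-coding gene, 268 in another gene body and 159 outside genes. The shared share was 76.1%, 70.4%, 57.5% and 69.8% in that order. Regions in other gene bodies, mostly of the lncRNA class, were 12.3 points below those outside genes (-21.3 to -2.86). A second H3K4me3 region lay within 5 kb of 63 regions (11.4%), against 7.29% of promoter regions (4.09 points, 1.64 to 7.05).

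Where both antibodies called ARID1A, it lay near the middle of the H3K4me3 region. The midpoint of the shared regions lay a median of 316 bp from the middle (346 bp at promoters), and 96.2% of 373 midpoints lay inside the H3K4me3 region. At the middle itself an Abcam region was present in 88.8% and a CST region in 86.3% of the 357, and 1000 bp to the right in 48.5% and 44.3%. A median of 68.9% of the H3K4me3 region was covered by shared ARID1A, against 59.3% at promoters, again counted over Abcam regions that a CST region overlapped. The cover was 64.9% in the lncRNA class and 75.2% in the no TSS class, and ARID1A itself was about as wide as at promoters (median widest Abcam region 1880 and 1812 bp). Where neither antibody gave a region, the nearest ARID1A region was a median of 27174 bp away, and within 10 kb at 27 of the 119.

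**Figure D4:**
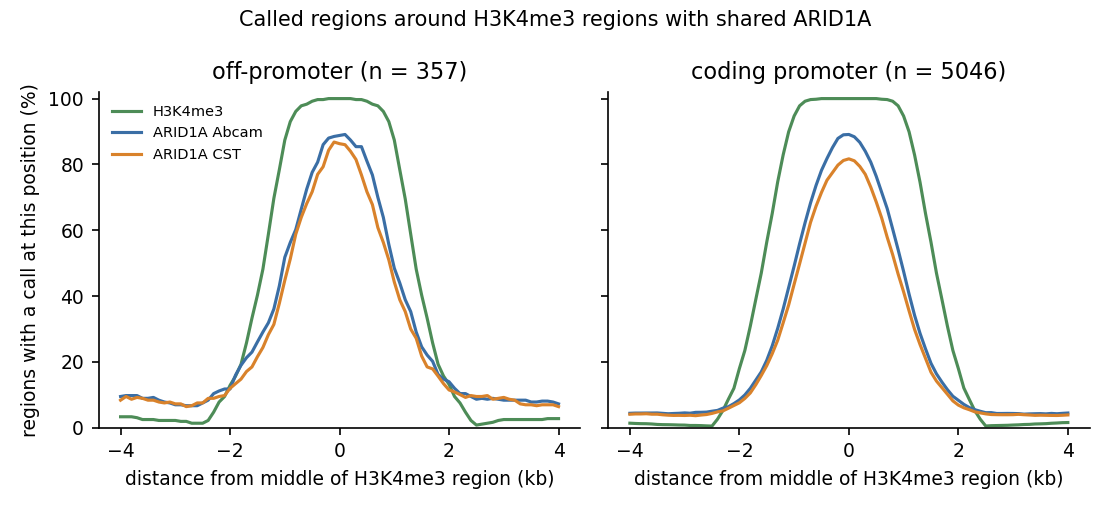
Share of regions (y axis, %) with a called H3K4me3, Abcam or CST region at each distance from the middle of the H3K4me3 region (x axis, kb), for 357 off-promoter and 5046 promoter regions with shared ARID1A. At the middle the Abcam and CST lines stand at 88.8% and 86.3% off promoters and at 89.1% and 81.7% at promoters, each within 1 percentage point of its highest value, inside the broader H3K4me3 line.

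The sequence at the middle of the regions was poorer in CpG than at promoters. A CpG-rich middle, meaning 300 bp with a G+C content of at least 50% and an observed over expected CpG ratio of at least 0.6, was present in 326 of 554 (58.8%) against 72.5% at promoters (-13.7 points, -17.9 to -9.54). It was present in 62.2% of the lncRNA class, 81.2% of the pseudogene class, 50.6% of the no TSS class and 35.8% of the regions at tRNA genes. The median CpG ratio was 0.706, against 0.771 at promoters.

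ARID1A was more frequent at the CpG-poor regions. Of 228 off-promoter regions with a CpG-poor middle, 162 had shared ARID1A (71.1%), against 195 of 326 with a CpG-rich one (59.8%), a difference of 11.2 points (3.16 to 18.9). Against promoter regions of the same kind, the CpG-poor regions were 10.3 points higher (71.1% and 60.8%, 3.76 to 16.1) and the CpG-rich ones 0.827 points higher (59.8% and 59%, -4.72 to 6.15). The split by CpG was chosen after the other values had been seen, and whether the 2 differences differ was not tested.

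**Figure D5:**
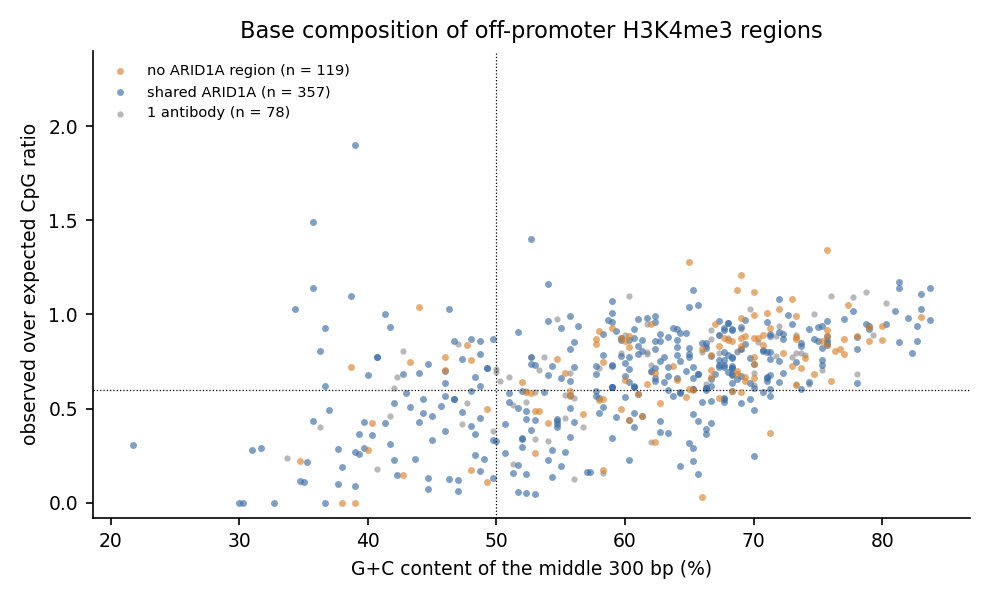
Observed over expected CpG ratio (y axis) against G+C content (x axis, %) of the middle 300 bp of each off-promoter region, coloured by ARID1A call. Dotted lines mark 50% G+C and a ratio of 0.6; of the regions in the upper right part 59.8% had shared ARID1A and of the others 71.1%.

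The middle 300 bp was searched on both strands for 12 words of known transcription factors. None of the words contains another, and a match is only a match of letters. The GC box (GGGCGG), bound by SP1, was present in 46.6% of off-promoter and 58.2% of promoter regions (-11.6 points, -15.9 to -7.33). The YY1 word (AAGATGGC) was also rarer, at 1.26% against 2.92% (-1.66 points, -2.41 to -0.296). The TATA box (TATAAA) was more frequent, at 6.68% against 3.85% (2.82 points, 0.978 to 5.25), and the CREB word (TGACGTCA) at 1.44% against 0.684% (0.76 points, 0.0224 to 2.15). For the other 8 words the interval of the difference included 0: AP-1 (TGANTCA) 4.69% and 3.28%, TEAD (GGAATG) 11.4% and 11.2%, ETS (CCGGAAGT) 2.89% and 3.63%, E-box (CACGTG) 6.32% and 5.39%, NRF1 (GCGCATGC) 1.81% and 1.93%, CTCF core (AGGGGGC) 15.3% and 16.5%, forkhead (TGTTTAC) 2.17% and 2.2%, and GATA factors (AGATAA) 5.05% and 5.26%. The intervals are not adjusted for the number of words. Off-promoter and promoter regions also differed in base composition, and its part in these differences was not tested. Among CpG-poor middles alone, the GC box difference was -9.11 points (-13.8 to -3.41) and the E-box difference 2.89 points (0.202 to 6.94). There the interval included 0 for every other word. It ran from -1.28 to 2.29 for YY1, -1.29 to 7.72 for the TATA box and -0.183 to 2.27 for CREB.

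Within the off-promoter regions, the AP-1 and E-box words differed with ARID1A. The AP-1 word, the site of FOS and JUN dimers, was in 24 of 357 regions with shared ARID1A (6.72%) and 1 of 119 without any (0.84%), 5.88 points apart (1.54 to 9.04). The E-box word, bound by MYC and other basic helix-loop-helix factors, was in 30 and 3 (8.4% and 2.52%, 5.88 points, 0.643 to 9.61). For the other 10 words the interval included 0. Regions without ARID1A had more G+C in the middle (median 66.7% against 61%) and were narrower (2331 against 2760 bp), and the part of these in the differences was not tested.

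The limits of the rule run through continuous values. Of regions off promoters, the widest inside were 4891, 4973 and 4991 bp wide and the narrowest outside were 5011, 5028 and 5057 bp wide. The regions nearest to a coding TSS inside the rule lay 1027, 1061 and 1124 bp away, and those just outside lay 989, 988 and 951 bp away. The 1027 bp region (chr16:3189231-3192481) lay in OR1F1, an olfactory receptor gene, and held 3 tRNA genes and only a CST region.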

How the data were processed

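CUT&RUN regions were analysed in RT112 cells for ARID1A (Abcam, CST) and H3K4me3. Per the methods, frozen aliquots were processed in 1 batch with libraries made in 2, and biological replicates are stated only for the study in general, so separate cultures are not certain for these samples. The deposited files are 3 lists of region starts and ends, without a score. The authors trimmed reads with cutadapt, aligned them to hg38 with bwa-mem2, removed duplicates (Picard) and reads with several map positions, scaled replicates by E. coli spike-in, called regions with SEACR and merged replicates with bedtools. The threshold mode of SEACR is uncertain, since the methods say relaxed and the deposited lists are named stringent. Regions of IgG and of single replicates were not used here, and no regions were removed here as prone to artefacts.

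Positions are printed counting from 1. Regions on other sequences (14 H3K4me3, 152 Abcam, 159 CST) were left out. Overlap meant at least 1 bp. Genes came from GENCODE 44 and tRNA genes, gene starts and microRNAs from RefSeq (GRCh38). Shares carry 95% exact Clopper-Pearson intervals and differences 95% Newcombe intervals (statsmodels 0.14.6). No p-value was computed. The overlap search and the intervals were tested on simulated data. Named regions were, in each class, the 5 widest with shared ARID1A and the 3 widest without ARID1A, the members of 5 gene lists, those next to the limits of the rule, and the widest or richest in tRNA genes. 1 region that this rule would name is not reported here. The members, lists and words were chosen with earlier results of these data known.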

Additional observations from a re-analysis of the deposited data

How the results depend on the processing

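Without signal or replicates, the lists cannot show how strong or repeatable a region is, and regions just under the authors' threshold are missing from the lists. No paired analysis was possible because the deposited lists are merged over replicates, and for the same reason no replicate was left out. Of 108 alternative values, 76 stayed close to the value reported and 32 moved. Those that stayed lay inside the interval of a share or difference, within 1.5 times of a count, or between the quartiles of a median.

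The shared ARID1A share of 64.4% became 58.5% when ARID1A had to lie over the middle 200 bp, 34.3% with only the ARID1A regions of median width or more in their list, 74.4% with any Abcam, 68.6% with any CST and 78.5% with either. In the same way the lncRNA class became 57% (middle 200 bp), 31% (wide ARID1A) and 69.3% (Abcam), the pseudogene class 25% (wide) and 87.5% (Abcam), and the no TSS class 37.2% (wide) and 81.7% (Abcam). The difference from promoters of 4.96 points became 14.6 in the third width class and 10.3 in CpG-poor regions, and it fell to 2.41 with ARID1A regions of median width or more, 3.99 without off-promoter regions at tRNA genes and 0.827 in CpG-rich regions. The CpG and tRNA settings were chosen after seeing the data. With canonical TSSs alone, 864 regions met the rule in place of 554. With every class counted, pseudogene and small RNA regions numbered 100 and 51 in place of 16 and 10. In whole regions in place of the middle 300 bp, the word shares became 46% (AP-1), 72.9% (TEAD), 11.2% (ETS), 88.3% (GC box), 35.2% (E-box), 11.9% (NRF1), 8.66% (YY1), 59.4% (CTCF core), 60.1% (TATA box), 25.1% (forkhead), 59% (GATA) and 5.6% (CREB). Over whole regions the median G+C content of promoter, pseudogene and small RNA regions was 53.7%, 54.6% and 61.1%, in place of 65.7%, 62.5% and 55.5%. The order of off-promoter and promoter regions turned with it, from 62.3% below 65.7% in the middle to 54.5% above 53.7% over whole regions.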

Other observations

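The 47 H3K4me3 regions off promoters that were 5000 bp or wider held many familiar noncoding genes. Among them were MALAT1 (chr11:65496664-65508589, 11926 bp, the widest) and NEAT1, the architectural RNA of paraspeckles, which are neighbours on chromosome 11. UCA1, a lncRNA first described in urothelial carcinoma, lay at chr19:15827963-15835060. Also in this group were MIR205HG, MIR200CHG, MIR222HG, MIR23AHG and MIRLET7BHG, hosts of microRNAs, and the region of MIR21 (chr17:59836830-59843558), and each of these named genes had shared ARID1A. SNHG5 and SNHG7 had only an Abcam region and SNHG32 only a CST region. In all, 37 of the 47 had shared ARID1A (78.7%, 95% exact interval 64.3 to 89.3%) and 3 had none. That was below the 88.3% of all 728 H3K4me3 regions of 5000 bp or wider, and below the 89% of the 681 at promoters (-10.3 points, 95% Newcombe interval -24.1 to -0.627). This contrast was not matched for width, and the part of width in it was not tested. The 47 had a median width of 5899 bp and reached 11926 bp, while the promoter region at HOXB-AS3 was 21817 bp wide. Their middles were poorer in CpG than those of the narrower regions, with a median ratio of 0.39 against 0.706, and 35.1% of those with ARID1A held more than 1 shared ARID1A region, against 4.48%. These genes were named after their values were seen.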
